A study of Mus musculus with 6 samples.

Results

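The 10 genes described here encode the cytosolic receptors for RNA and DNA and the proteins that pass their signal to interferon genes: Rigi, Ifih1, Dhx58, Zbp1, Cgas, Sting1, Mavs, Tbk1, Irf3 and Irf7. They were taken by symbol from a table of 16217 genes, and all 10 were found, with Rigi listed under its older symbol Ddx58. Messenger RNA was measured in Hepa1-6 cells, which derive from a mouse liver tumour, as stable lines made with a lentiviral vector and kept by selection with puromycin. In 3 libraries (KD1, KD2 and KD3) the vector carried a hairpin against Ero1a, an oxidase of the endoplasmic reticulum, and the group is called shERO1A. In 3 libraries (replicates 1, 2 and 3) it carried the control hairpin, and the group is called shNC. Both groups therefore share the virus and the selection, and differences between the 2 stable lines that have nothing to do with Ero1a cannot be told apart from the effect of the hairpin. The labels do not say whether a group's libraries come from separate cultures, so the spread behind each p-value may be technical. The title of the study is about the entry of CD8+ T cells into liver tumours and the response to antibodies against PD-L1.

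RIG-I (Rigi) and MDA5 (Ifih1) are helicases that bind viral or misplaced double-stranded RNA in the cytosol and then join MAVS on mitochondria through their CARD domains. LGP2 (Dhx58) has the helicase without the CARD domains and adjusts the response of its relatives. cGAS binds DNA in the cytosol and makes the second messenger cGAMP, which is bound by STING (Sting1) on the endoplasmic reticulum, and ZBP1 recognises nucleic acids in the Z form. MAVS and STING both recruit the kinase TBK1, which phosphorylates the transcription factors IRF3 and IRF7, and these switch on Ifnb1 and other antiviral genes. Rigi, Ifih1, Dhx58, Zbp1 and Irf7 are themselves known to be induced by interferon, while Irf3, Tbk1 and Mavs are made in most cells without it. In the KEGG annotation that the authors deposited with the table, 8 of the 10 genes belong to the RIG-I-like receptor pathway, 8 belong to the cytosolic DNA-sensing pathway, and 6 belong to both.

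Start regions are shown for both helicases that join MAVS and for MAVS itself, because Ifih1 rose while Mavs fell and Rigi divided the knockdown libraries. The authors' build was mm39, and the windows come from an earlier build. Each window runs from 250 bases before to 50 bases after the start given by RefSeq on GRCm38.p6, is 300 bases long and is printed on the strand of the gene. Capitals mark matches to GAAANNGAAA on either strand, a spaced repeat of the GAAA core that IRF proteins bind. The windows lie at chr4:40239776-40240075 (minus strand) for Rigi, at chr2:62646206-62646505 (minus strand) for Ifih1 and at chr2:131233813-131234112 (plus strand) for Mavs.
Rigi: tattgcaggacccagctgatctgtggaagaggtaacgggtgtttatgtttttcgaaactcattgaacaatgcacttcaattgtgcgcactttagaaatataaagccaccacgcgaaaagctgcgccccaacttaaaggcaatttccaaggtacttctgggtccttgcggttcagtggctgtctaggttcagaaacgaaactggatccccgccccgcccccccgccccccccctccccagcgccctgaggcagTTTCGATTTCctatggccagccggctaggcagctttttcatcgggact
Ifih1: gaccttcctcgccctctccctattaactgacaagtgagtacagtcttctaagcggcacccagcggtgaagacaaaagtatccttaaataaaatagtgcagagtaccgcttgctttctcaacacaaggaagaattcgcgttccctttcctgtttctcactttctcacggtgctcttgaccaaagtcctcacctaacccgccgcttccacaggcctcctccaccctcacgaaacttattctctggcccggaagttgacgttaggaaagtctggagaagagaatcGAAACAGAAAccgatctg
Mavs: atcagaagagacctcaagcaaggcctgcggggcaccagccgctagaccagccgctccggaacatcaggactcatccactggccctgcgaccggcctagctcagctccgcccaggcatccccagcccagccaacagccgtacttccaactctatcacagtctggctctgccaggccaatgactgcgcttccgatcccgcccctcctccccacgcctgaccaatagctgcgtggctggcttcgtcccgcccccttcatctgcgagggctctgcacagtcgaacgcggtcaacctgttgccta
The match in Rigi covers bases 3 to 12 counted from the start, on the opposite strand, and the match in Ifih1 covers bases 33 to 42, on the strand of the gene. Windows were analysed for 7 of the 10 genes (Rigi, Ifih1, Cgas, Mavs, Tbk1, Irf3 and Irf7), and 2 of the 7 held a match. Dhx58, Zbp1 and Sting1 were left out of this search, so the count does not cover all 10 genes. Over all 32851 windows of this length, 3.44% held one. A match describes the letters only, and the other 5 windows lack these letters within 300 bases.

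Between 38290505 and 39646829 reads per library lay behind the table. Levels are given in FPKM, reads scaled to the length of the gene and the total reads of the library, which allows a rough comparison between genes. Ero1a had 37.8, 39.6 and 38.4 FPKM in shNC against 15.0, 16.0 and 15.7 FPKM in shERO1A, so each library followed its label. Library KD3 stood apart from the other libraries of its group. The chi-square per degree of freedom of the reads was 6.14 for KD1 against KD2. It was 63.2 for KD3 against KD1 and 48.5 for KD3 against KD2. Between shNC libraries it was 4.13 to 4.65. Against shNC it was 31.2 to 33.9 for KD1 or KD2 and 84.3 to 88.3 for KD3. KD3 thus differed more from KD1 and KD2 than KD1 and KD2 differed from the controls. Results that rest on KD3 are therefore given with and without it. Of the hepatocyte markers analysed, Krt8, Hnf4a and Trf were present at 1260 ± 22.8, 41.1 ± 1.12 and 43.2 ± 1.76 FPKM in shNC, and all 3 fell in shERO1A. All 6 hepatocyte markers analysed, of 9 listed, were below the controls in every knockdown library, as were 18.5% of all tested genes. Without shNC replicate 1, 2 or 3 the fall of Hnf4a alone was called, and the call of Trf was also lost without KD1 or KD2 and with no filter. Markers of immune cells (4 of 9 analysed) summed to between 2.18 and 3.32 FPKM in every library, nearly all of it Cd68, with Ptprc at or near 0. Markers of fibroblasts (5 of 8 analysed) summed to between 0.845 and 1.41 FPKM. Markers of endothelial cells (4 of 6 analysed) summed to between 9.97 and 10.7 FPKM in shNC and to between 17.9 and 19.0 FPKM in shERO1A, and this was nearly all Cdh5, with Pecam1 and Vwf at or near 0. The part of these markers in the results was not tested.

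The sensors were present at very unequal levels. In shNC the order by mean FPKM was Irf7, Rigi, Zbp1, Ifih1, Dhx58, Tbk1, Irf3, Mavs, Cgas and Sting1, and no neighbours in this order overlapped in their 3 libraries. Irf7 was above 97.6% of the genes in the table and Rigi above 92.4%, whereas Cgas was near the middle at 48.7% and Sting1 at 28.5%. The order of means was the same in shERO1A, where Tbk1 and Irf3 overlapped and the other neighbours did not. Rigi, Ifih1, Dhx58, Zbp1 and Irf7, named above as induced by interferon, took the 5 highest places in both groups. Cgas and Sting1, which were not classed above by their response to interferon, took the lowest places.

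**Figure D1:**
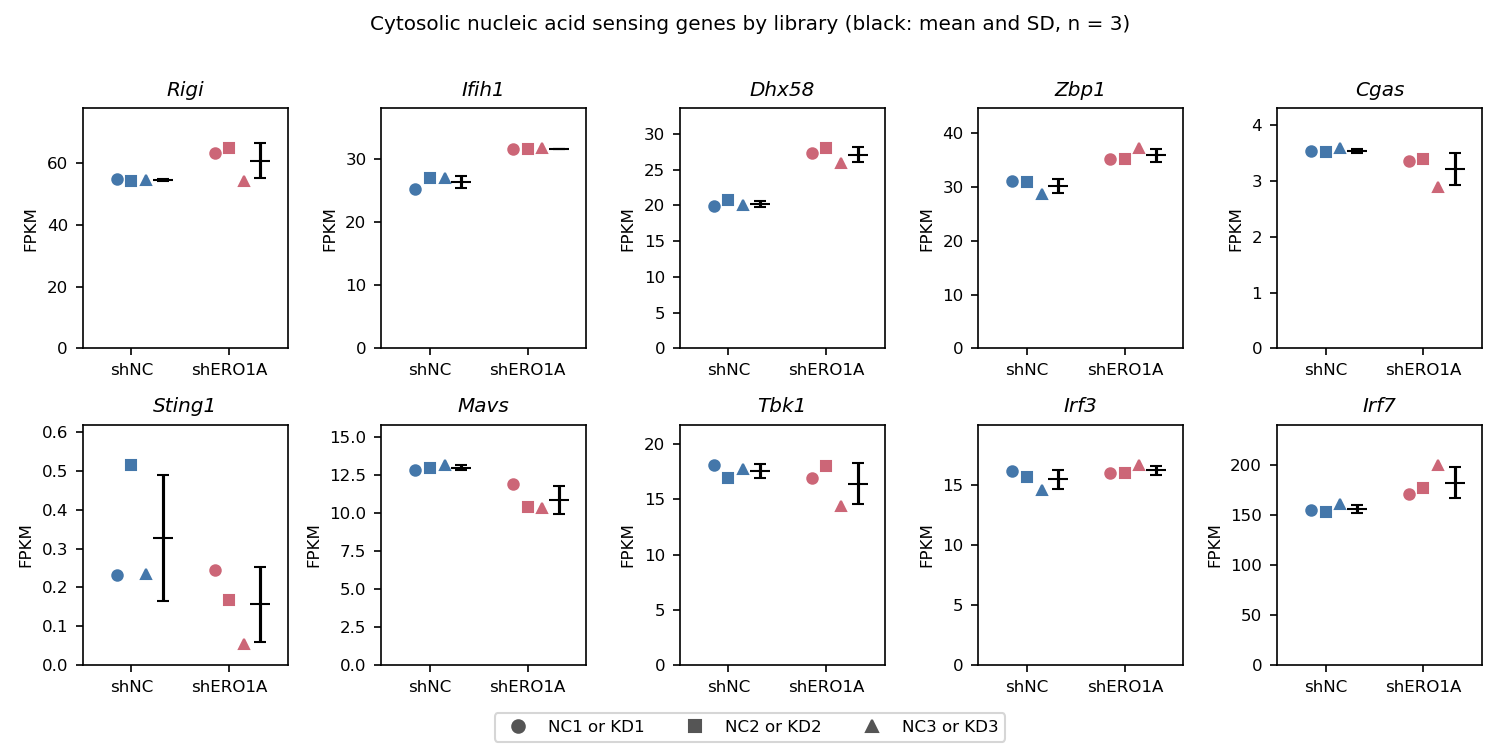
Level in FPKM (y axis, from 0, own scale in each panel) of the 10 genes in the 3 shNC and 3 shERO1A libraries; each point is a library, marker shapes only name libraries and pair none, and black bars give mean and SD. The shERO1A libraries lie above all shNC libraries for Ifih1, Dhx58, Zbp1 and Irf7 and below them for Mavs and Cgas, and KD3 (triangle) sits with the controls for Rigi.

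Of the 10 genes, 9 passed the filter of a mean of 1 FPKM and were tested, and Sting1 did not. Ifih1, Dhx58 and Zbp1 rose in shERO1A, Mavs fell, and Rigi, Irf7, Irf3, Tbk1 and Cgas did not pass (limma, Benjamini-Hochberg adjusted p under 0.05 over 10296 genes). Over all tested genes, 17.7% were called, 9.48% as higher and 8.23% as lower. The changes were small: the ratio of group means lay between 0.836 for Mavs and 1.34 for Dhx58. The median log2 fold change of the 9 genes was 0.15, beside 0.01 over all tested genes. The groups did not overlap in 6 of the 9 genes, 4 higher and 2 lower in shERO1A. Over all tested genes 40.0% showed no overlap, 21.5% higher and 18.5% lower. Without KD3, 5 of the 9 rose and 1 fell, where 27.7% of all genes were called, 14.8% higher and 12.9% lower. Without shNC replicate 1, 2 or 3, the members called higher numbered 3, 3 and 2 and none was called lower (limma), beside 9.46%, 9.28% and 9.25% of all genes called (4.76%, 4.68% and 4.78% higher, 4.7%, 4.59% and 4.47% lower). Without KD1, 4 rose and 1 fell, beside 15.9% of all genes (8.35% higher, 7.59% lower), and without KD2, 3 rose and 0 fell (limma), beside 11.6% (5.99% higher, 5.6% lower). At q under 0.05, the authors' deposited table has 4 of the 10 higher and 1 lower, beside 14.4% of its genes (6.92% higher, 7.49% lower).

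Among the RNA helicases, Dhx58 changed most. It measured 19.9, 20.7 and 20.0 FPKM under the control hairpin and 27.4, 27.9 and 26.0 FPKM under the Ero1a hairpin. Every knockdown library was above every control library, and the mean rose from 20.2 ± 0.437 to 27.1 ± 1.01 FPKM (SD, n = 3; log2 fold change 0.41, SE 0.05, limma adjusted p = 0.00101). This change was larger in size than that of 92.8% of the tested genes, and its adjusted p stayed at or below 0.00983 in all 12 alternatives. Ifih1, the receptor of long double-stranded RNA, measured 25.3, 27.0 and 26.9 FPKM under the control hairpin and 31.5, 31.5 and 31.6 FPKM under the Ero1a hairpin. The 3 knockdown libraries were nearly level with each other and all above the controls (log2 fold change 0.25, SE 0.04, limma adjusted p = 0.00714; at most 0.0395 over the alternatives).

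Rigi, the receptor of RNA with a 5′ triphosphate, divided the knockdown libraries. It stood at 54.9, 54.3 and 54.4 FPKM in shNC, at 63.2 and 64.7 FPKM in KD1 and KD2, and at 54.3 FPKM in KD3. KD1 and KD2 were above every control and KD3 was level with the controls, so the groups overlapped (log2 fold change 0.15, 95% interval -0.01 to 0.31, limma adjusted p = 0.175). Without KD3 it was called (log2 fold change 0.23, 95% interval 0.16 to 0.29, limma adjusted p = 0.000733). The 95% intervals given here are not adjusted for the number of genes.

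FPKM ratios between the helicases within a library do not depend on how libraries are scaled. Rigi was at 2.76, 2.62 and 2.72 times the level of Dhx58 in shNC and at 2.31, 2.32 and 2.09 times in shERO1A. Ifih1 was at 1.27, 1.30 and 1.34 times the level of Dhx58 in shNC and at 1.15, 1.13 and 1.22 times in shERO1A. Both ratios were lower in every knockdown library than in every control. In log2(FPKM + 1), the change of Rigi was 0.26 below that of Dhx58 and the change of Ifih1 was 0.15 below it. The exact permutation p, two-sided, was 0.10 for each, which is the smallest that 3 against 3 libraries allow, and 0.25 when adjusted over the 5 pairs compared. For Rigi against Ifih1 the difference was -0.10 (exact permutation p = 0.40, adjusted p = 0.50).

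Messenger RNA of Zbp1, whose protein can direct cells to necroptosis, also rose. Zbp1 measured 31.1, 31.0 and 28.7 FPKM under the control hairpin and 35.3, 35.2 and 37.2 FPKM under the Ero1a hairpin. All knockdown libraries were above all controls (log2 fold change 0.24, SE 0.05, limma adjusted p = 0.0145). The call was lost without shNC replicate 3 (adjusted p = 0.071), with 0.00665 as the lowest adjusted p over the alternatives.

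Of the cGAS and STING axis, Cgas was near the middle of all genes by level and Sting1 was low. Cgas measured 3.54, 3.51 and 3.58 FPKM under the control hairpin and 3.36, 3.39 and 2.89 FPKM under the Ero1a hairpin. The knockdown libraries were all below the controls, with KD3 the lowest, but the difference did not pass the test (log2 fold change -0.11, 95% interval -0.27 to 0.05, limma adjusted p = 0.319; log2 fold change -0.05 without KD3). Sting1 had 21, 46 and 21 reads in shNC and 22, 15 and 5 reads in shERO1A, which gave 0.232, 0.516 and 0.234 FPKM and 0.246, 0.168 and 0.0541 FPKM. The groups overlapped, and shNC replicate 2 held more than its fellow controls. Sting1 is below the filter and has no main test; with no filter its adjusted p was 0.286 (limma, log2 fold change -0.20), and the authors' deposited table gives q = 0.312. In bulk RNA, fewer cells with the transcript and less of it per cell cannot be told apart.

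The adaptor MAVS and the kinase TBK1 link the receptors to the IRF factors. Mavs measured 12.8, 13.0 and 13.2 FPKM under the control hairpin and 11.9, 10.4 and 10.3 FPKM under the Ero1a hairpin. It was lower in every knockdown library (log2 fold change -0.24, SE 0.06, limma adjusted p = 0.0353) and was the only one of the 9 tested genes called as lower. The call did not hold when no filter was used (adjusted p = 0.0572), when shNC replicate 1, 2 or 3 was left out (adjusted p = 0.103, 0.116 and 0.129) or when KD2 was left out (adjusted p = 0.11), and its adjusted p was lowest, at 0.0121, without KD1. Tbk1 measured 18.1, 16.9 and 17.8 FPKM under the control hairpin and 16.9, 18.0 and 14.4 FPKM under the Ero1a hairpin. KD3 was the lowest library and the other 2 lay within the range of the controls (log2 fold change -0.10, 95% interval -0.28 to 0.09, limma adjusted p = 0.438; log2 fold change -0.01 without KD3).

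Of the transcription factors, Irf7 was the most abundant of all 10 genes. It measured 155, 153 and 161 FPKM under the control hairpin and 171, 177 and 200.0 FPKM under the Ero1a hairpin. Every knockdown library was above every control, with KD3 the highest, yet the adjusted p was just above the threshold (log2 fold change 0.22, 95% interval 0.07 to 0.37, limma adjusted p = 0.0555). Irf7 was called without KD3 (adjusted p = 0.00868), without KD1 (adjusted p = 0.0375), with voom on recovered reads (adjusted p = 0.0454) and in the authors' deposited table (q = 0.0218), and its highest adjusted p, 0.187, came without shNC replicate 2. Irf3 measured 16.1, 15.7 and 14.6 FPKM under the control hairpin and 16.0, 15.9 and 16.6 FPKM under the Ero1a hairpin. The groups overlapped (log2 fold change 0.06, 95% interval -0.06 to 0.18, limma adjusted p = 0.436). Irf7 was at 9.62, 9.74 and 11.0 times the level of Irf3 in shNC and at 10.6, 11.1 and 12.0 times in shERO1A, and these ranges overlapped (exact permutation p = 0.20, adjusted p = 0.333 over the 5 pairs).

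**Figure D2:**
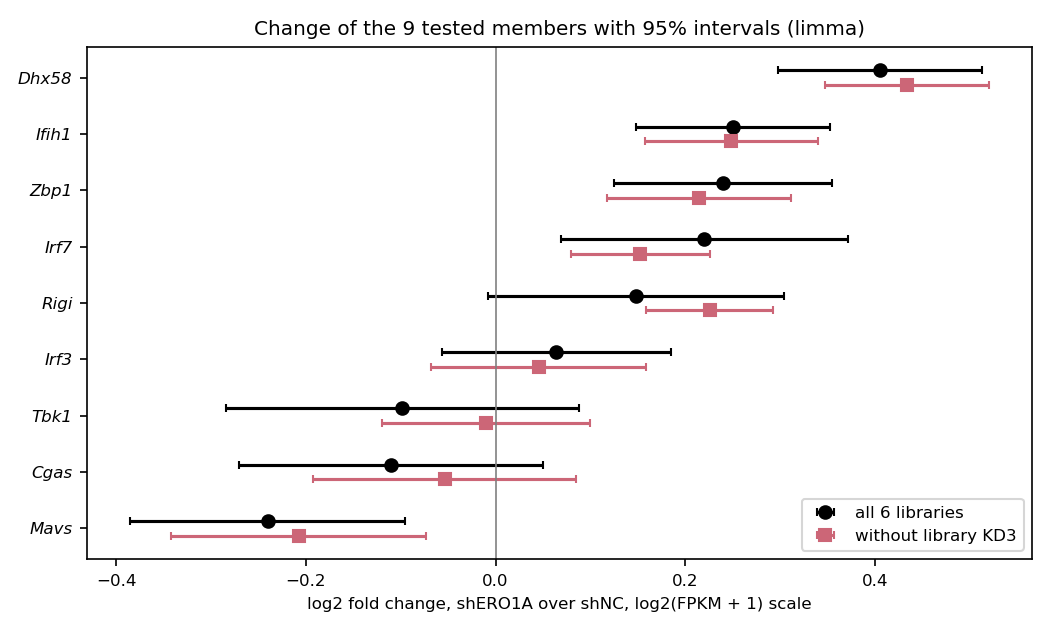
Log2 fold change of shERO1A over shNC on the log2(FPKM + 1) scale (x axis) for the 9 tested genes, with 95% intervals from limma, over all 6 libraries (black circles) and without KD3 (red squares). Without KD3 the estimate of Rigi moved from 0.15 to 0.23, that of Irf7 moved from 0.22 to 0.15, and the intervals of Tbk1, Cgas and Irf3 included 0 in both fits.

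Genes that work around the sensors were grouped into 8 lists, of which 85 genes were tested in all. Of these, 21 rose, 6 fell and 58 did not pass, so that 31.8% were called, beside 17.7% over all tested genes. Of the 21 rises, 9 were IRF3 target genes and 6 were other cytosolic DNA sensors. The lists were chosen with earlier results of these data known, so the pooled share is not independent evidence. Without shNC replicate 1, 2 or 3 the rises numbered 12, 13 and 13 and the falls 3 each. Together these were 17.6%, 18.8% and 18.8% of the 85, beside 9.46%, 9.28% and 9.25% of all tested genes. Without KD3 28 rose and 9 fell, or 43.5%, beside 27.7% of all tested genes. Cofactors of the RNA sensors and RNA editors held no called gene among 13 tested (limma), with 0 also by voom and 1 in the authors' deposited table, while 3 had an unadjusted p under 0.05. Ddx3x, an RNA helicase, was at 131 ± 2.93 and 129 ± 3.17 FPKM, and the stress granule gene G3bp1 at 103 ± 1.38 and 103 ± 3.08 FPKM (SD, n = 3). Without KD3, 5 of the 13 rose (38.5%), where 14.8% of all tested genes were called higher. They were the ubiquitin ligase gene Rnf135, the endosomal receptor gene Tlr3, and Ddx60, Adar and Zc3hav1, named here after their values were seen. Ddx60, like Rigi, was at the control level in KD3, with 13.2, 13.4 and 9.98 FPKM in KD1, KD2 and KD3 against 10.2, 10.1 and 10.8 FPKM in shNC.

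Among adaptors of MAVS and TBK1, 15 genes were tested, 1 rose and 2 fell (20.0% called, beside 17.7% over all tested genes). Ikbke, which encodes the kinase most like TBK1, measured 10.5, 9.17 and 10.4 FPKM under the control hairpin and 6.44, 6.49 and 5.39 FPKM under the Ero1a hairpin. It fell in every knockdown library, to 0.610 of its control mean (log2 fold change -0.63, SE 0.08, limma adjusted p = 0.0018), the largest change of the 3 genes called. Cyld, a deubiquitinase that restrains the pathway, fell to 0.780 of control (adjusted p = 0.00678), and Tax1bp1, an autophagy adaptor, rose 1.18-fold (adjusted p = 0.00702). These 3 calls held with any single library left out. Without KD3 a further fall was called, so that 26.7% were called, beside 27.7% of all tested genes.

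In the list of genes that handle cytosolic DNA, cGAMP and STING, 18 were tested, 2 rose and 1 fell. Of the 18, 16.7% were thus called, beside 17.7% over all tested genes. Enpp1, which hydrolyses cGAMP outside the cell, fell from 6.43 ± 0.357 to 5.28 ± 0.282 FPKM (limma adjusted p = 0.0363). Rnaseh2a, the catalytic subunit of RNase H2, rose from 17.4 ± 0.226 to 20.6 ± 1.47 FPKM (adjusted p = 0.032), and the lysosomal cholesterol transporter gene Npc1 rose from 38.1 ± 2.02 to 48.2 ± 5.46 FPKM (adjusted p = 0.0336). No call in this list was left without any single shNC replicate or without KD2. Without KD3 3 rose and 2 fell, or 27.8%, beside 27.7% of all tested genes. Trex1 was not analysed here.

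Among other cytosolic DNA sensors, 6 of 11 tested rose and 0 fell (limma; 54.5% called, beside 17.7% over all tested genes). Their median log2 fold change was 0.30, beside 0.01 over all tested genes. All 6 belong to the PYHIN family, which binds DNA through HIN domains. Ifi204, often named as a mouse counterpart of human IFI16, measured 82.2, 81.0 and 81.1 FPKM under the control hairpin and 115, 116 and 112 FPKM under the Ero1a hairpin, with no overlap (log2 fold change 0.48, SE 0.04, limma adjusted p = 0.000204). Ifi209, Ifi205 and Mndal rose 1.54-fold, 1.42-fold and 1.29-fold, and Aim2, the inflammasome sensor, and Ifi203 were the other calls. Leaving out single libraries gave 3 to 7 rises, and Ifi204, Ifi205 and Ifi209 were called each time. The DNA repair sensors Prkdc, Xrcc5 and Xrcc6 and the chromatin protein gene Hmgb1 did not pass. PYHIN genes resemble each other, so reads may be split between them.

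The interferon genes themselves were barely measured. Ifnb1 had 6, 3 and 7 reads in shNC and 11, 20 and 70 reads in KD1, KD2 and KD3, or 0.201, 0.102 and 0.236 FPKM and 0.372, 0.676 and 2.29 FPKM. Every knockdown library was above every control, and KD3 held most of the reads. The ratio of means was 6.21 with KD3 and 2.92 without it. At a mean of 0.647 FPKM Ifnb1 was below the filter and has no main test; with no filter the limma adjusted p was 0.197, and the authors' deposited table gives q = 0.00938. Ifna4 had 8, 4 and 1 reads in shNC and 11, 5 and 11 reads in shERO1A, and the groups overlapped. Of the 8 listed interferon genes, 5 were not analysed here.

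Genes of the interferon receptor and of other IRFs gave 2 rises and 2 falls among 13 tested (30.8%, beside 17.7% of all tested genes). Usp18, which dampens the receptor, rose 1.58-fold (limma adjusted p = 0.000549). Jak1, a kinase of the receptor, fell from 38.2 ± 0.634 to 34.0 ± 0.947 FPKM (adjusted p = 0.0343), and Ifnlr1, a chain of the type III interferon receptor, from 2.04 ± 0.0353 to 1.38 ± 0.307 FPKM (adjusted p = 0.0452). Of the calls of Usp18, Jak1 and Ifnlr1, that of Usp18 alone held without any single shNC replicate or KD2. Stat2, a transcription factor gene of interferon signalling, is named after its values were seen: it stood at 43.1, 43.8 and 43.0 FPKM in shNC, at 46.6 and 43.0 FPKM in KD1 and KD2, and at 23.9 FPKM in KD3. KD3 alone was low, at 55.1% of the control mean (log2 fold change -0.25, limma adjusted p = 0.467 over all libraries; 0.05, adjusted p = 0.432 without KD3).

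**Figure D3:**
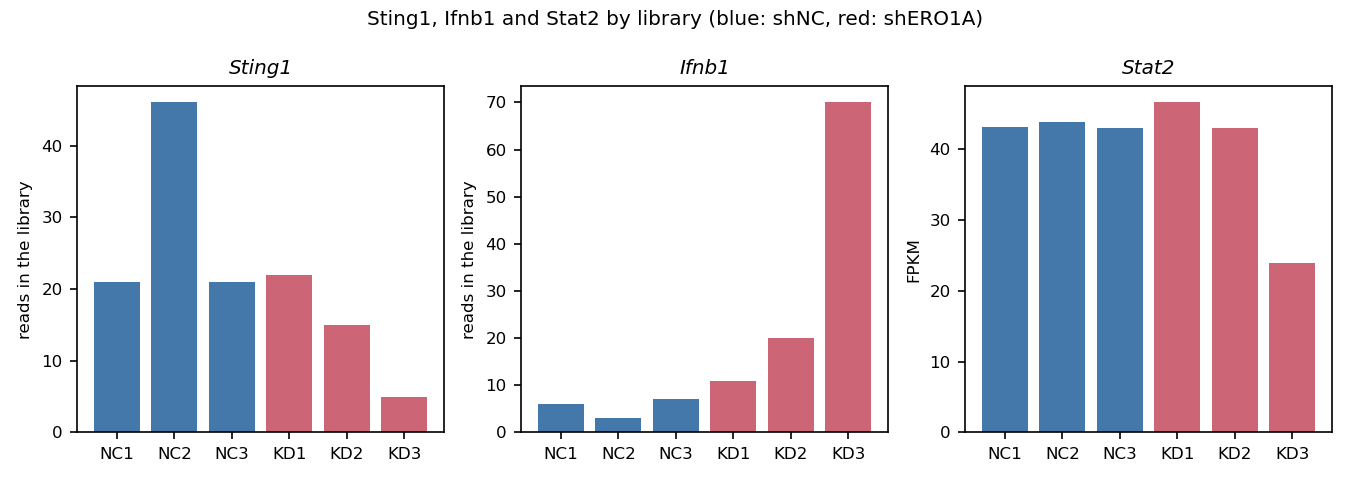
Reads per library for Sting1 and Ifnb1 and FPKM for Stat2 (y axes from 0) in the 3 shNC libraries (blue) and the 3 shERO1A libraries (red). Sting1 has at most 46 reads, Ifnb1 has 70 reads in KD3 and at most 20 elsewhere, and Stat2 is low only in KD3.

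Genes that IRF3 can switch on directly were nearly all higher. Of 10 tested, 9 rose (90.0% called, beside 17.7% over all tested genes), with a median log2 fold change of 0.36. The other gene, Isg20, was below all controls in every knockdown library without passing (log2 fold change -0.11, limma adjusted p = 0.0999), and it was called as lower without KD3 (adjusted p = 0.0322). The list was written with earlier results of these data known, and most of its genes are also induced through the interferon receptor, so it is not independent evidence of a direction. Ccl5, Ifit3, Cxcl10 and Ifit1 rose 1.68-fold, 1.51-fold, 1.44-fold and 1.41-fold (limma adjusted p between 0.000149 and 0.000804). Without shNC replicate 1, 2 or 3 the rises numbered 7, 7 and 8, and without KD1, KD2 or KD3 they numbered 9 each.

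ZBP1 partners and cell death genes gave 1 rise and 1 fall among 5 tested (40.0%, beside 17.7% of all tested genes). Gsdmd, the pore former of pyroptosis, fell from 119 ± 1.93 to 85.9 ± 5.36 FPKM (log2 fold change -0.47, limma adjusted p = 0.00105). Mlkl, the executor of necroptosis, rose from 63.3 ± 2.26 to 71.6 ± 1.94 FPKM (adjusted p = 0.0353), a call lost without any single shNC replicate or KD2 and with libraries scaled to the same median. Casp8, Casp6 and Cflar did not pass, and Ripk3 was not analysed here.

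**Figure D4:**
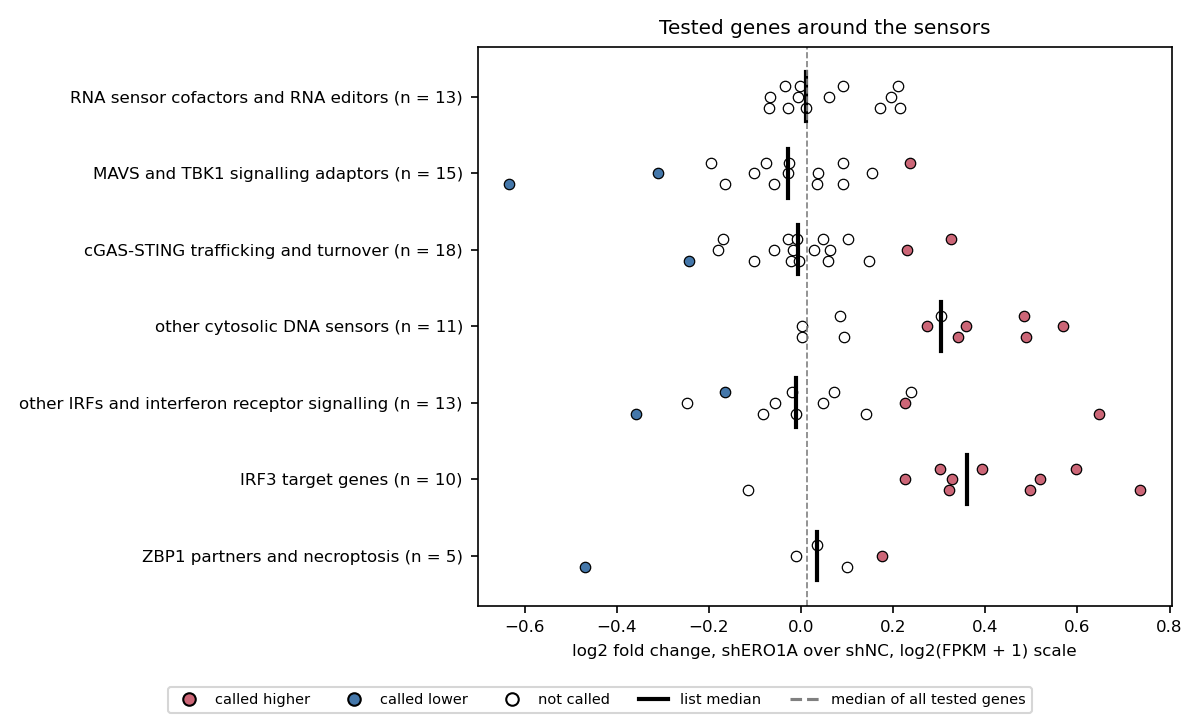
Log2 fold change of shERO1A over shNC on the log2(FPKM + 1) scale (x axis) of each tested gene in 7 of the 8 lists (y axis; no interferon gene was tested); red and blue points are called higher and lower, white points are not called, thick lines are list medians and the dashed line is the median of all tested genes. The medians of other cytosolic DNA sensors (0.30) and IRF3 target genes (0.36) lie to the right of those of the other 5 lists.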

How the data were processed

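RNA was extracted with TRIzol, per the labels. The submitters' processing notes list HISAT2 2.1.0, HTSeq 0.11.2 and mm39, with annotation and strand of counting not given in the sources used here. Expression was deposited as 1 table of FPKM values per library (unit identified from the values, since the header names none). Per the file headers it also holds DESeq2 base means, a signal averaged by the authors over each group. Per the file headers, the authors also gave a fold change as a ratio, a log2 fold change, and a p-value and q-value. Column names match the titles of the shNC samples; KD1, KD2 and KD3 name a group but no single sample.

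Reads were recovered from the deposited FPKM and base means, of which 100% (97302) lay within 0.01 of an integer. Genes averaging 1 FPKM or more were fitted as log2(FPKM + 1) with limma 3.58.1 (R 4.3.3, intensity trend, no covariate), with Benjamini-Hochberg adjustment and a threshold of 0.05. This scale understates changes of low genes. The steps were tested on simulated data. Alternatives were a pseudocount of 0.1, a filter at 0.1 FPKM or none, median scaling, limma's voom on recovered reads scaled by a trimmed mean of log ratios, the authors' deposited table and leaving out each library.

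Members and lists were chosen with earlier results of these data known. By rule, the text names every member, Ero1a and, per list, up to 4 called genes with the largest change, or the 2 highest genes where none was called; 1 gene that the rule names is not reported here. Outside this rule, and with their values already seen, the text names Ifi203, Aim2, Ptprc, Pecam1, Vwf, Stat2, Rnf135, Tlr3, Ddx60, Adar, Zc3hav1, Prkdc, Xrcc5, Xrcc6, Hmgb1, Isg20, Casp8, Casp6 and Cflar. Start regions are from RefSeq. RefSeq places the predicted genes Gm39839 and Gm38483 over Ifih1 and Dhx58, and reads of overlapping genes cannot be told apart here.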

Additional observations from a re-analysis of the deposited data

How the results depend on the processing

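No paired analysis was possible because the shERO1A columns name no single sample. Every tested member kept its direction in all 12 alternatives (97 of 108 values also kept their side of the threshold, 6 lost a call and 5 gained one). With no filter on low values, 0 members were lower. Leaving out single libraries gave 2 to 5 members higher and 0 to 1 lower, 12 to 28 listed genes higher and 3 to 9 lower, and 482 to 1521 genes higher and 460 to 1332 lower over the whole table, and no single omission gave more calls than that of KD3. Among the other genes that the rule names, G3bp1 turned from a log2 fold change of -0.001 to 0.0095 without shNC replicate 1 and 0.0204 without KD1 (lowest -0.0222 without KD2), and 48 of 336 values lost a call. Of the tested genes named outside the rule, Stat2 turned from -0.25 to 0.05 without KD3, and Prkdc, Xrcc6 and Cflar, none of them called, changed sign under some alternatives. The cause was not tested. The depth of the libraries was alike, and counts were low for Sting1 and the interferon genes, with at most 46 and 70 reads.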

Other observations

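The deposited KEGG annotation of the RIG-I-like receptor and cytosolic DNA-sensing pathways holds 48 genes that are neither members nor listed above. Of the 40 tested, 5 rose and 1 fell, or 15.0%, beside 17.7% over all tested genes. The rises were the cytokine genes Ccl4 (0.983 ± 0.30 to 6.54 ± 0.747 FPKM) and Il6 (1.84 ± 0.179 to 3.24 ± 0.625 FPKM), the autophagy gene Atg12, the kinase gene Mapk8 and Polr3d. Ccl4 kept its call in all 12 alternatives. The call of Il6 was lost without shNC replicate 1 or 2, and that of Atg12 without shNC replicate 2 or 3. Mapk8 lost its call without any single shNC replicate, KD1 or KD2, and with a filter at 0.1 FPKM or none. Map3k1, a kinase upstream of JNK, fell from 5.16 ± 0.412 to 3.59 ± 0.481 FPKM (SD, n = 3; limma adjusted p = 0.0173), a call lost without shNC replicate 2 (adjusted p = 0.0769) or 3 (adjusted p = 0.0669). RNA polymerase III can copy AT-rich DNA into RNA that RIG-I binds, and of its 9 tested subunits carrying the Polr3 name 1 rose. Polr3c was below all controls in every knockdown library (limma adjusted p = 0.0502) and was called as lower with median scaling (0.0419), with voom (0.0477) and without KD3 (0.0375). Leaving out KD3 gave 8 rises and 2 falls among the 40, and leaving out shNC replicates 1, 2 and 3 in turn gave 2, 1 and 2 rises and 1, 0 and 0 falls (limma). The genes named here were named after their values were seen.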
